A study of Mus musculus with 2 samples.

Results

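The 46 genes described here carry cells through the division cycle. Of these, 26 act mainly in G2 and mitosis (G2/M), 18 act in S phase, and Hmgb2 and Stmn1 were kept apart because both are also transcribed outside the cycle. They were chosen by symbol, and all 46 were among the 32285 genes listed for both libraries. The genes were followed in 3653 control and 4950 knockout cells, where a cell is a barcode with 500 or more genes detected and no more than 20% of its counts from mitochondrial genes. A cell was called cycling when at least 3 of 8 G2/M members (Mki67, Top2a, Cdk1, Cenpf, Ube2c, Hmmr, Birc5 and Aspm) were detected in it. This rule found 41 cycling cells in the control library and 27 in the knockout library.

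The cells came from whole uteri of female mice aged 6 months, profiled by droplet single-cell RNA sequencing of transcript ends. The sample titles give Prickle1 f/f (control) and Prickle1 f/f Ltf-cre (cKO), so both groups carried the floxed Prickle1 gene and the cKO mice also carried Cre from the lactoferrin locus. The genotype field instead names C57BL/6J wild-type for both, and the titles were followed. Ltf is an oestrogen-responsive gene of the uterine epithelium, so the deletion is aimed at that layer and not at the whole organ. Each group was a pool of 3 mice sequenced as 1 library. Genotype, animals, dissociation and library cannot be told apart, no difference has a replicate check, and no p-value is given. Bracketed ranges are 95% intervals that cover counting error only. Oestrous stage is not given in the sources used here.

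Cells copy their DNA in S phase and separate the copies in mitosis. Transcription of many S-phase genes is switched on by E2F factors at the end of G1. Later, G2/M genes are switched on together through promoter elements known as the CHR and the CCAAT box, bound by the MuvB complex and by NF-Y. In the adult uterus, division of the epithelium follows ovarian oestrogen.

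Promoter letters differed between the phase groups. RefSeq promoter windows on GRCm38.p6, from 250 bases before to 50 after a gene's start, were matched for 22 of the 26 G2/M members and 15 of the 18 S-phase members. CHR-like letters (TTTGAA or TTCGAA, either strand) were present in 18 of 22 G2/M members (81.8%), in 2 of 15 S-phase members (13.3%) and in 21.7% of 27025 genes. CCAAT on either strand was present in 20 of 22 G2/M members, in 10 of 15 S-phase members and in 41.1% of all genes. E2F-like letters (TTTCCCGC, TTTGGCGC, TTTCGCGC or TTTGCCGC, either strand, with overlapping matches allowed) were present in 7 of 15 S-phase members (46.7%), in 1 of 22 G2/M members and in 2.60% of all genes. A match describes the letters of the window and does not mark a bound site.

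The following stretches hold the 160 bases before the start of 3 G2/M and 3 S-phase members. They were picked as examples that hold the letters, and values for each are given among the results. In Cdc20 (chr4:118437344-118437503, minus strand), Ube2c (chr2:164769769-164769928, plus strand) and Mki67 (chr7:135716380-135716539, minus strand), capitals mark CHR-like and CCAAT letters on either strand.
Cdc20: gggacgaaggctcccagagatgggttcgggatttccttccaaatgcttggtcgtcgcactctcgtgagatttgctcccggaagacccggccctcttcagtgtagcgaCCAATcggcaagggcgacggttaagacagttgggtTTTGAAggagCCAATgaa
Ube2c: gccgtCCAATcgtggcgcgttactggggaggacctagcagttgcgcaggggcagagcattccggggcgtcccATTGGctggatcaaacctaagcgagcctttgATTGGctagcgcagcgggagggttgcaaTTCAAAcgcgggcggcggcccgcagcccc
Mki67: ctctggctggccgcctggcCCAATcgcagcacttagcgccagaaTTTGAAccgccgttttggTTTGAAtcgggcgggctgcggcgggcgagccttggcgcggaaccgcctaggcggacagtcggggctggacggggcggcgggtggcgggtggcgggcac

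In Mcm5 (chr8:75109349-75109508, plus strand), Mcm6 (chr1:128359706-128359865, minus strand) and Cdc6 (chr11:98907991-98908150, plus strand), capitals mark E2F-like letters on either strand, and neighbouring matches run together.
Mcm5: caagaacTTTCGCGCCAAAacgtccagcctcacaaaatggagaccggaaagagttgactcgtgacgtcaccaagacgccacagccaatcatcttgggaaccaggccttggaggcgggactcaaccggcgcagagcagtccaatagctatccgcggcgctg
Mcm6: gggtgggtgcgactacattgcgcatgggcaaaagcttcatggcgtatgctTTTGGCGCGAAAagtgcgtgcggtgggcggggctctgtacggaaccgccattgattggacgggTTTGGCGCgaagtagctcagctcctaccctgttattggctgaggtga
Cdc6: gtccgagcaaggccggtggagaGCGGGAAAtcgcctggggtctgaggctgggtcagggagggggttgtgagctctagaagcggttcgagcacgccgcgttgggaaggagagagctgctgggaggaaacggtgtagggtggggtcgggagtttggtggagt

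The control library held 45035801 unique molecular identifiers (UMIs) and the cKO library 57145553. The median depth was 4650 UMIs in control cells and 5944 in cKO cells. The libraries shared 5 cell barcodes. A doublet score above 0.25 was reached by 19 control cells (0.520%) and 41 cKO cells (0.828%), and these were kept, as the rule for the cells sets no doublet filter. Levels are given as CPM, a gene's UMIs scaled to the total of the cells summed.

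Cells were placed in 7 classes by the gate gene with the most UMIs: Epcam (an epithelial adhesion protein), Pdgfra (a fibroblast receptor), Actg2 (smooth-muscle actin), C1qa (a complement subunit of macrophages), Flt3 (a dendritic-cell receptor), Cd3e (a T-cell receptor subunit) or Ncr1 (a natural killer receptor). Each gate was checked by asking how many of its cells held at least 2 further markers of that cell type. In control this was 980 of 1002 Epcam cells (97.8%), and in cKO it was 95 of 149 (63.8%). The cKO Epcam class also held stromal markers at 3702 CPM against 334 CPM in control, mesothelial markers at 331 against 20.7 CPM, and B or plasma cell markers at 1233 against 1.28 CPM. The Ncr1 gate was supported in 18 of 20 control and 26 of 36 cKO cells, and B or plasma cell markers reached 3684 CPM in its cKO cells and were at 0 in control. At least 2 B or plasma cell markers were detected in 1 of those 36 cells. Among the 149 cKO Epcam cells at least 2 of them were detected in 5, at least 2 stromal markers in 62 and at least 2 mesothelial markers in 39. In the other 5 gates the supported share lay between 84.2% and 98.8% in either library, and markers of other cell types that differed between libraries are given beside the results for several of these gates. The part of these other markers in the results was not tested. For the Epcam class the cycling and replication-gene shares, the phase sums and the count of higher members are also given in the supported cells.

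Cycling cells were a smaller share of the cKO library. They made up 41 of 3653 control cells (1.12%, 0.807 to 1.52%) and 27 of 4950 cKO cells (0.545%, 0.360 to 0.793%), a difference of -0.577 percentage points (-1.01 to -0.193). When every cell was thinned to 5000 UMIs, leaving out 1918 control and 2139 cKO cells that were shallower, the shares were 24 of 1735 (1.38%) and 12 of 2811 (0.427%). The difference was then -0.956 points (-1.65 to -0.404). At both of these depths the interval of the difference lay below 0. Thinned to 1000 UMIs, 10 of 3490 control and 5 of 4642 cKO cells passed, and the difference of -0.179 points had an interval that spanned 0 (-0.427 to 0.0159).

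Epcam cells were the largest source of cycling cells in both libraries, with 21 of the 41 in control and 13 of the 27 in cKO. Their share within the Epcam class was 21 of 1002 (2.10%, 1.30 to 3.19%) in control and 13 of 149 (8.72%, 4.73 to 14.5%) in cKO. The median depth of these classes was 6550 and 15410 UMIs. After thinning to 5000 UMIs the shares were 10 of 589 (1.70%) and 2 of 124 (1.61%), a difference of -0.0849 points (-1.91 to 4.07). Thinned to 1000 UMIs they were 3 of 995 (0.302%) and 1 of 149 (0.671%), a difference of 0.370 points (-0.432 to 3.41). At both matched depths the interval spanned 0. In the Epcam cells with further epithelial markers the own-depth shares were 20 of 980 (2.04%) and 13 of 95 (13.7%), at median depths of 6594 and 26462 UMIs.

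In the remaining classes the counts were small. C1qa cells gave 3 of 256 (1.17%) in control and 5 of 134 (3.73%) in cKO, and the interval of the difference, -0.512 to 7.33 points, spanned 0. Flt3 cells gave 2 of 46 and 4 of 148, Cd3e cells 2 of 139 and 1 of 412, Ncr1 cells 2 of 20 and 0 of 36, and Pdgfra cells 3 of 682 and 1 of 1590. At the cells' own depth the intervals of these 4 differences spanned 0. Thinned to 1000 UMIs, Cd3e cells gave 2 of 137 in control and 0 of 409 in cKO, and the interval of that difference, -5.17 to -0.0504 points, lay below 0, while thinned to 5000 UMIs it spanned 0 (-15.5 to 0.464). Actg2 cells gave 0 of 303 and 0 of 551, which allows shares of up to 0.990% and 0.544% at 3 counts (exact 95% upper limits 1.21% and 0.667%), at median depths of 1555 and 1605 UMIs. These limits cover cells that pass the rule at this depth and do not bound the share of dividing cells, since over all control cells 10 passed at 1000 UMIs and 41 at own depth. Cells without a gate gave 8 of 1205 (0.664%) and 3 of 1930 (0.155%), and here the interval of the difference, -1.16 to -0.0642 points, lay below 0, although it spanned 0 after thinning to 1000 UMIs (-0.810 to 0.132).

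**Figure D1:**
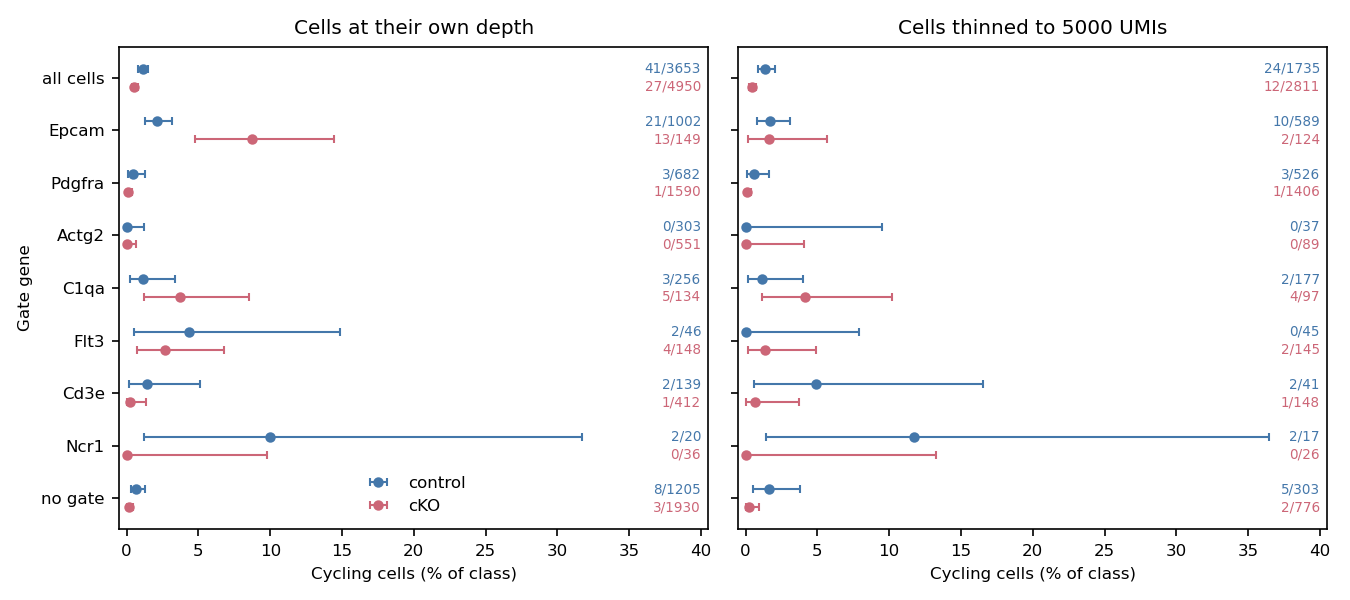
Share of cycling cells (x axis, % of the class) in each gated class (y axis) for control (blue) and cKO (red), at the cells' own depth (left) and thinned to 5000 UMIs (right). Points are shares, bars are exact 95% binomial intervals, and the counts stand at the right; the Epcam shares of 2.10% and 8.72% at own depth come to 1.70% and 1.61% after thinning.

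Cells with at least 3 of 8 S-phase members detected (Gins2, Cdc6, Cdt1, Ccne1, Ccne2, Uhrf1, Rrm2 and Tyms) were counted separately. There were 77 such replication-gene cells in control (2.11%) and 74 in cKO (1.49%), of which 21 and 17 were also cycling. Within the Epcam class they numbered 50 of 1002 in control (4.99%, 3.73 to 6.53%) and 41 of 149 in cKO (27.5%, 20.5 to 35.4%). All 41 were among the 95 cKO Epcam cells with further epithelial markers, as were all 13 cycling ones, so that replication-gene cells made up 49 of 980 (5.00%) and 41 of 95 (43.2%) of the supported cells. The median depth of the supported cells was 6594 UMIs in control and 26462 in cKO, and they were not thinned. After thinning to 5000 UMIs the Epcam counts were 1 of 589 (0.170%) and 7 of 124 (5.65%), a difference of 5.48 points (2.49 to 11). The interval of the difference in Epcam cells lay above 0 at both depths.

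The balance of the phases was read in single cycling cells, as a description only, since 8 of the 26 G2/M members chose these cells. More UMIs of the 26 G2/M members than of the 18 S-phase members were found in 36 of 41 control cycling cells and in 15 of 27 cKO cycling cells. Among Epcam cells this was 19 of 21 in control and 2 of 13 in cKO. Cell-free barcodes held G2/M members at 128 and 115 CPM and S-phase members at 327 and 579 CPM. The G2/M level of 1 of the 21 control and 4 of the 13 cKO Epcam cycling cells lay below the cell-free level of their library, and the part of free RNA in the balance was not tested. Control Epcam cycling cells had a median of 48 G2/M and 19 S-phase UMIs at a median depth of 43584 UMIs. The cKO ones had a median of 16 G2/M and 76 S-phase UMIs at 83128 UMIs. Mki67, the standard marker of proliferating cells, had a UMI in 19 of 21 and 5 of 13 of them. At least 2 gate genes were detected in 8 cycling cells of each library, and the doublet score passed its limit in 1 of each.

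**Figure D2:**
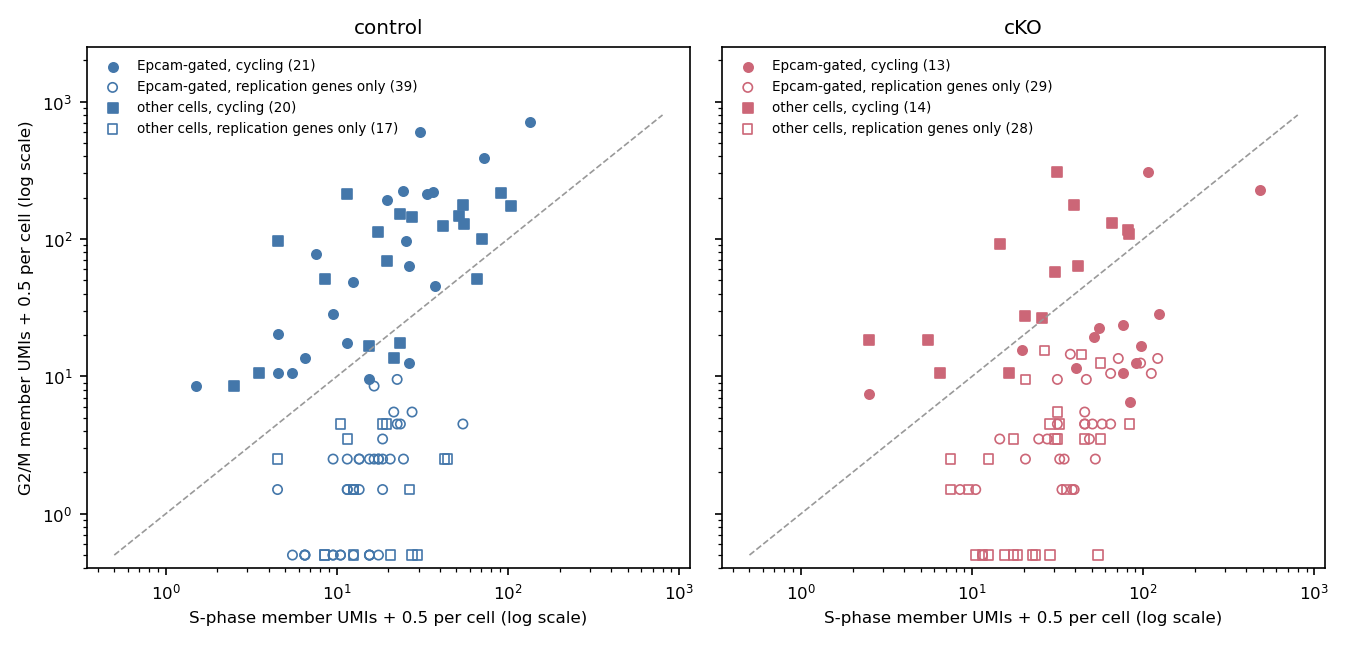
Each point is a cycling cell (filled) or a cell with replication genes only (open), in control (left) and cKO (right), with circles for Epcam cells and squares for others. Axes are the summed UMIs of S-phase members (x) and G2/M members (y) plus 0.5, on log scales; the dashed line marks equality, above which 19 of 21 control and 2 of 13 cKO Epcam cycling cells lie.

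Summed over all cells of a library, the G2/M members were lower in cKO and the S-phase members higher. The make-up of the libraries differed too, with Epcam cells at 27.4% of control and 3.01% of cKO cells. The 26 G2/M members came to 185 CPM in control (181 to 190.0) and 128 in cKO (125 to 131), a ratio of 0.693 (0.670 to 0.716), but this direction turned as a mean over cells (log2 ratio 0.24) and after thinning to 1000 UMIs (0.39). Cenpa, the only one of them higher in cKO, was left out of a second sum after the data were seen and is described separately. Most of its UMIs lay outside cycling cells, as did those of Kif23, which was kept. Without Cenpa the members came to 157 and 67.6 CPM, a ratio of 0.430 (0.412 to 0.448). This sum was lower in cKO under every alternative run (log2 ratio -1.34 to -0.78). The 18 S-phase members came to 348 CPM in control (342 to 354) and 557 in cKO (551 to 564), a ratio of 1.60 (1.57 to 1.64). Cell-free barcodes with at most 100 UMIs held S-phase members at 327 and 579 CPM and G2/M members without Cenpa at 112 and 54.7 CPM.

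A gene was counted as higher or lower when its CPM ratio, with 0.5 UMI added to each library, was at least 2-fold. Among all 17846 genes with enough counts, 13.4% were higher and 13% lower in cKO over all cells, with a median log2 ratio of 0.25. Of the 26 G2/M members, 18 were lower and 1 higher, with a median log2 ratio of -1.13. Of the 18 S-phase members, 2 were higher and 1 lower, with a median of 0.60. The share of G2/M members lower was above the 13% of all genes, while 2 of 18 S-phase members higher is close to the 13.4% of all genes. After thinning to 1000 UMIs 8 members were lower, in place of 19. Fewer members can have enough counts at that depth, and the share of all genes lower there is not given, so the counts cannot be compared.

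Cenpe, Ube2c, Cenpf, Nusap1 and Mki67 were among the 18 G2/M members at least 2-fold lower. Cenpe, a motor that links kinetochores to spindle fibres, had 7.27 CPM in control and 1.63 in cKO, 4.47-fold lower (3.50 to 5.77). Ube2c, the ubiquitin-conjugating enzyme of the anaphase-promoting complex, had 13.2 and 3.50 CPM, 3.79-fold lower (3.19 to 4.51), but its log2 ratio of -1.92 came to -0.19 after thinning to 1000 UMIs, short of 2-fold. Cenpf, a kinetochore protein of late G2, had 8.49 and 2.40 CPM, 3.54-fold lower (2.87 to 4.38), with a log2 ratio of -1.82 that was -2.77 after thinning to 5000 UMIs. Nusap1, which bundles spindle microtubules, had 8.41 and 2.38 CPM, 3.53-fold lower (2.86 to 4.38). Mki67 had 16.7 and 7.64 CPM, 2.19-fold lower (1.93 to 2.49). Neither Cdc20 nor Top2a reached a 2-fold difference. Cdc20, an activator of the anaphase-promoting complex, had 4.22 and 2.19 CPM, a ratio of 1.92 in favour of control (1.51 to 2.47), and Top2a, which untangles DNA before mitosis, had 22.5 and 11.6 CPM, a ratio of 1.94 (1.75 to 2.16). Control was higher for 25 of the 26 G2/M members, Cenpa being the exception, although the interval of Pbk, a mitotic kinase, included equality (ratio 0.712, 0.493 to 1.03).

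The few cycling cells held most of the G2/M signal in control and less of it in cKO. For all 26 G2/M members the 41 control cycling cells held 71.8% of the UMIs and the 27 cKO ones 27.4%. Without Cenpa these shares were 80.2% and 50.3%. In cells that were neither cycling nor replication-gene cells, the same 25 members came to 32.9 CPM in control and 33.1 CPM in cKO. This near equality did not hold in each class: the level outside those cells was 30.6 and 53.3 CPM in Epcam cells and 82.0 and 53.7 CPM in Cd3e cells. Since 8 of the members chose the cycling cells, these shares are a description.

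**Figure D3:**
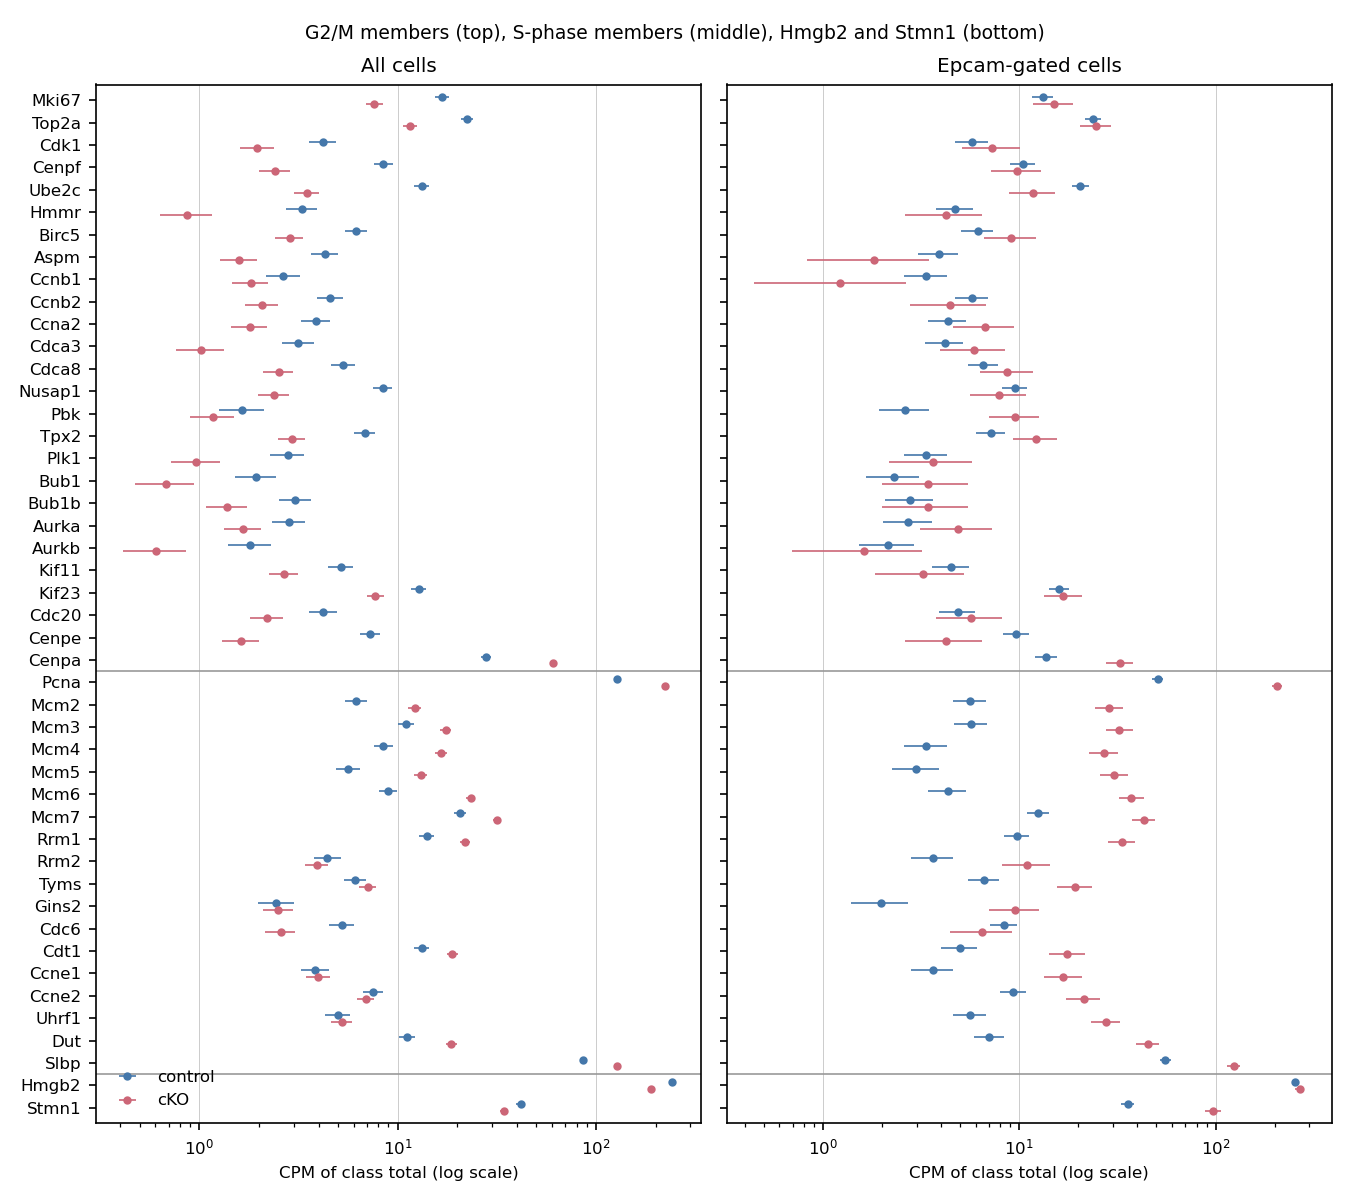
Level of each member (x axis, CPM of the class total, log scale) in control (blue) and cKO (red), over all cells (left) and Epcam cells (right), with exact 95% Poisson intervals. Lines separate G2/M members, S-phase members, and Hmgb2 and Stmn1; over all cells the G2/M members other than Cenpa lie lower in cKO, and in Epcam cells the S-phase members other than Cdc6 lie higher.

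Cenpa, the histone H3 variant that marks centromeres, did not follow the other G2/M members. It had 1053 UMIs in control (27.9 CPM) and 3212 in cKO (60.7 CPM), 2.17-fold higher in cKO (2.03 to 2.33), with a log2 ratio of 1.12 that was 1.74 after thinning to 1000 UMIs. Cycling cells held 24.7% of its UMIs in control and 2.05% in cKO. It was detected in 352 of 3556 control cells (9.90%) and 1068 of 4866 cKO cells (21.9%) that were neither cycling nor replication-gene cells, at 23.6 and 63.9 CPM. Cell-free barcodes held Cenpa at 15.9 CPM in control and 60.4 CPM in cKO. The part of free RNA in this detection and in the higher cKO level was not tested. Cells without a gate held 412 of its UMIs in control and 2039 in cKO, at 82.1 and 192 CPM. Kif23, a motor of the cell midzone in cytokinesis, also lay partly outside, with 35.7% and 13.7% of its UMIs in cycling cells, but it was lower in cKO (12.8 and 7.71 CPM). Among the other 24 G2/M members the share of UMIs in control cycling cells was at least 64.5% (Aurka, a spindle-pole kinase). In cKO cycling cells the lowest share among these was 17.2% (Cdc20).

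Members of both phases were detected in cycling cells. The 18 G2/M members that the 8-gene rule did not use were detected in a median of 62.2% of control cycling cells (39.0 to 80.5%) and 46.3% of cKO cycling cells (22.2 to 66.7%). In cells that were neither cycling nor replication-gene cells, the median was 0.703% and 0.740%. The 10 S-phase members outside the replication-gene rule were detected in a median of 61.0% of control and 74.1% of cKO cycling cells, and in 6.55% and 13.2% of cells in neither set. Members differed in this: the cyclin gene Ccnb2 was detected in 24 of 41 control and 6 of 27 cKO cycling cells and Ccnb1 in 21 and 7, while Ccna2 was detected in 23 (56.1%) and 13 (48.1%). Cdca8, which guides chromosomes with Birc5, was detected in 65.9% and 66.7%, and Pbk in 39.0% and 40.7%. The kinase Plk1, which drives entry into mitosis, was detected in 19 and 6. In contrast Mcm5, of the helicase that opens DNA for copying, was detected in 28 of 41 and 23 of 27, and Mcm4 of the same complex in 18 and 20. Median depth of the cycling cells was 22541 UMIs in control and 34864 in cKO, and the part of depth in these shares was not tested. Pcna, the sliding clamp of replication, and Slbp, which binds histone messages, were also detected in 47.0% and 39.0% of control cells that were neither cycling nor replication-gene cells and in 68.9% and 55.1% of such cKO cells. Their levels there were close to those of cell-free barcodes: Pcna had 131.4 and 222 CPM in these cells and 131.5 and 236 CPM cell-free, and Slbp had 86.7 and 128 CPM against 71.4 and 139 CPM. The part of free RNA in these shares was not tested.

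**Figure D4:**
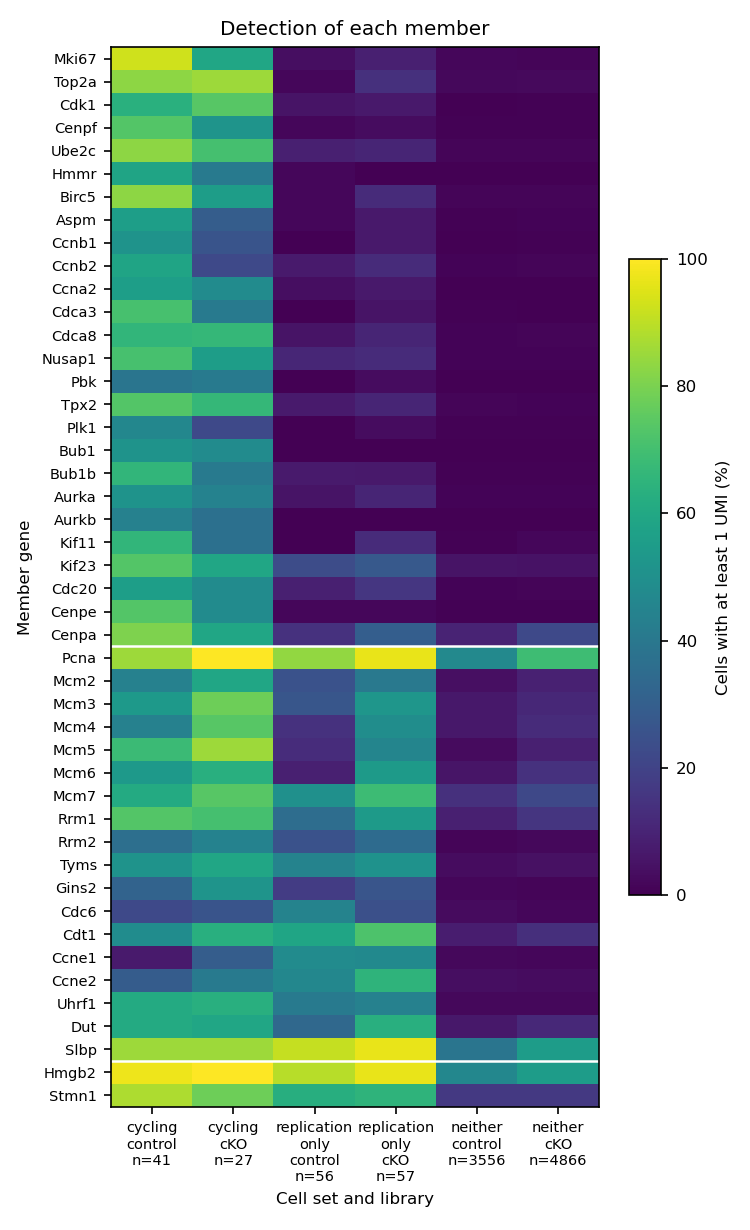
Share of cells with at least 1 UMI of each member (color, %) in cycling cells, cells with replication genes only, and all others, per library; rows are the 46 members and white lines separate G2/M members, S-phase members, and Hmgb2 and Stmn1. The G2/M rows are bright in the cycling columns (median 62.2% in control and 46.3% in cKO for the 18 outside the rule) and dark elsewhere, apart from Cenpa and Kif23.

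In Epcam cells the S-phase members stood higher in cKO. The S-phase sum was 201 CPM in control (195 to 208) and 736 in cKO (712 to 760), a ratio of 3.65 (3.49 to 3.82). The log2 ratio was 1.87 at own depth, 2.03 with cells thinned to 5000 UMIs and 1.91 in cells with further epithelial markers. Without Cenpa the G2/M sum was 180.1 and 187 CPM, a ratio of 1.04 (0.965 to 1.12). The log2 ratio of that G2/M sum, 0.05 at own depth, was not stable: it was -0.12 after thinning to 5000 UMIs, 1.24 after thinning to 1000 UMIs, 0.86 as a mean over cells and 0.18 in cells with further epithelial markers. In cells that were neither cycling nor replication-gene cells, the S-phase members came to 177 CPM in 942 control and 513 CPM in 107 cKO Epcam cells. Cell-free barcodes held them at 327 and 579 CPM, above both of those values, and the part of free RNA was not tested. The most heavily loaded cell held 3.55% of the S-phase UMIs in control and 13.3% in cKO. For the G2/M sum without Cenpa the top cell held 20.3% and 32.4%. Cycling cells held 6.70% of all UMIs of the class in control and 24.5% in cKO.

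In this class 29.3% of 13093 genes were at least 2-fold higher in cKO and 9.35% were lower, with a median log2 ratio of 0.46. Of the 18 S-phase members 17 were higher, with a median log2 ratio of 2.11. Of the 26 G2/M members 2 were higher (Cenpa and Pbk) and 3 lower, with a median of 0.17. The count of members higher was 20 in Epcam cells with further epithelial markers as well, 14 after thinning to 5000 UMIs and 2 after thinning to 1000 UMIs. Thinned cells hold fewer UMIs, so fewer members can have enough counts. The counts after thinning therefore cannot be set beside 20 or beside the shares of all genes given here.

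The helicase genes Mcm5, Mcm6 and Mcm4 were furthest apart. Mcm5 had 56 UMIs in control (2.99 CPM) and 151 in cKO (30.6 CPM), 10.2-fold higher (7.47 to 14.2). Mcm6 had 4.33 and 37.2 CPM, 8.61-fold higher (6.59 to 11.3), and Mcm4 had 3.36 and 26.9 CPM, 8.0-fold higher (5.89 to 11). The promoter stretches of Mcm5 and Mcm6 printed earlier both hold E2F-like letters. Dut, which keeps uracil out of DNA, had 7.05 and 45.1 CPM, 6.40-fold higher (5.14 to 8.0). The remaining helicase genes Mcm2, Mcm3 and Mcm7 were 5.13-, 5.72- and 3.47-fold higher. Mcm5 was found in 32 of 1002 control and 50 of 149 cKO Epcam cells, with 12.5% and 19.9% of its UMIs in the top cell. Cell-free barcodes held Mcm5 at 7.76 and 17.5 CPM, above the level in control Epcam cells and below that in cKO ones, and the part of free RNA and of depth was not tested. Across alternatives all 4 named log2 ratios stayed above 2-fold but moved, from 3.35 to 4.74 for Mcm5, from 3.11 to 4.32 for Mcm6, from 2.68 to 3.59 for Dut and from 3.00 to 2.42 for Mcm4, each after thinning to 1000 UMIs.

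Genes that start replication and supply its nucleotides were also higher, with an exception. Ccne1 and Ccne2, the cyclins of entry into S phase, were 4.63-fold (3.32 to 6.47) and 2.29-fold higher (1.78 to 2.93). Cdt1, which loads the helicase, was 3.55-fold higher (2.62 to 4.80), and Gins2, part of the active helicase, 4.81-fold (3.06 to 7.62). Rrm1, Rrm2 and Tyms, enzymes of deoxynucleotide synthesis, were 3.42-, 3.01- and 2.90-fold higher. Uhrf1, which keeps DNA methylation through replication, was 4.91-fold higher (3.78 to 6.39). Cdc6, which loads the helicase together with Cdt1, had 8.33 CPM in control and 6.48 in cKO, a ratio of 0.778 (0.514 to 1.14). Its interval included equality, and its promoter stretch printed earlier also holds E2F-like letters.

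The G2/M members furthest lower in Epcam cells by their interval were Cenpe, Ube2c, Ccnb1 and Aspm. Cenpe had 9.67 and 4.25 CPM, 2.27-fold lower (1.44 to 3.76), and Ube2c had 20.5 and 11.7 CPM, 1.75-fold lower (1.32 to 2.34). Ccnb1, the cyclin of mitotic entry, had 63 UMIs in 12 control cells and 6 UMIs in 5 cKO cells, 2.77-fold lower (1.2 to 7.83), but its log2 ratio of -1.47 came to -0.34 after thinning to 5000 UMIs, short of 2-fold. Aspm, a spindle-pole protein, had 73 and 9 UMIs, 2.14-fold lower (1.07 to 4.87). Mki67 had 13.2 CPM in control (11.6 to 14.9) and 15.0 in cKO (11.8 to 18.8), and Top2a had 23.8 (21.6 to 26.1) and 24.7 (20.5 to 29.5). The intervals of the last 2 genes overlapped, and 56.8% of the cKO Mki67 UMIs were in 1 cell. Ube2c was instead higher in cKO after thinning to 1000 UMIs (log2 ratio 1.57).

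In Pdgfra cells the G2/M sum was lower in cKO and the S-phase sum level. The G2/M sum without Cenpa was 43.4 CPM in control and 18.4 in cKO, a ratio of 0.425 (0.373 to 0.484), and the S-phase sum was 409 and 422 CPM, a ratio of 1.03 (0.994 to 1.07). Of the 36 members with enough counts, 8 were at least 2-fold lower and 0 higher, against 7.71% and 5.17% of all genes. Among these were 16 of the 26 G2/M members, of which 7 were at least 2-fold lower and 9 were not, with log2 ratios from -2.24 to 0.95. The members furthest lower by their interval were Nusap1 (4.76-fold lower, 2.54 to 9.13), Birc5, an inhibitor of cell death that also guides chromosomes (4.11-fold, 2.48 to 6.90), Cenpf (4.51-fold, 2.43 to 8.54) and Mki67 (4.11 and 1.21 CPM, 3.41-fold, 2.10 to 5.54). Top2a had 4.32 and 1.31 CPM. These values rest on few cells: Mki67 was seen in 6 cells of each library and the top cell held 46.2% and 68.6% of its UMIs. That cKO cell, the only cycling Pdgfra cell of its library, had a doublet score of 0.394, above the 0.25 limit. The Mki67 log2 ratio of -1.77 became -4.58 with such cells removed, and it was -1.22 with any Pdgfra-positive cell, where Nusap1 and Cenpf were both at -1.57 in place of -2.25 and -2.17. In Pdgfra cells outside both the cycling and the replication-gene sets, the G2/M sum without Cenpa was 16.8 and 16.3 CPM. Mcm2 (1.82-fold, 1.30 to 2.60) and Mcm5 (1.83-fold, 1.24 to 2.80) were higher in cKO, and Pcna and Slbp were 1.09- and 1.10-fold higher, Pcna with a log2 ratio of -0.0071 after thinning to 1000 UMIs. Epithelial markers summed to 146 CPM in control and 16.8 in cKO Pdgfra cells, and their part was not tested.

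C1qa cells went the other way. Their G2/M sum without Cenpa was 138 CPM in control and 501 in cKO, a ratio of 3.63 (3.18 to 4.17), while the S-phase sum was 586 and 607 CPM. Of 38 members with enough counts 25 were higher and 0 lower, against 13.6% and 4.51% of all genes. Top2a had 12.9 and 120.7 CPM, 9.37-fold higher (6.29 to 14.4), and Mki67 had 15.1 and 60.7 CPM, 4.02-fold higher (2.67 to 6.17). Ccna2, the cyclin of S phase and G2, was 6.96-fold higher (2.80 to 20.7) and Ube2c 4.54-fold (2.56 to 8.42). The class held 3 and 5 cycling cells, and 1 cell gave 61.9% of the control and 42.2% of the cKO sum without Cenpa. The cycling cells held 67.4% and 92.3% of that sum. In C1qa cells outside both the cycling and the replication-gene sets it was 41.6 and 42.6 CPM. When cells with a second gate gene were left out, 8 members were higher and 3 lower, and the log2 ratio of the sum without Cenpa was 0.45 in place of 1.86. The shares of all genes higher and lower without those cells are not given here. Without those cells the log2 ratio of Ccna2 came from 2.80 to 0.21, short of 2-fold, that of Top2a from 3.23 to 1.46 and that of Mki67 from 2.01 to 1.08. Ube2c, at 2.18, came to 0.94 after thinning to 1000 UMIs, also short of 2-fold, and to 3.68 after thinning to 5000 UMIs. Slbp had 140.0 and 108.6 CPM, 1.29-fold lower (1.06 to 1.58), but was higher in cKO after thinning to 1000 UMIs (log2 ratio 0.47). In C1qa cells stromal markers summed to 341 and 1167 CPM, red cell markers to 7.56 and 370.0 CPM and dendritic markers to 3277 and 4332 CPM, and their part was not tested. At least 2 red cell markers were detected in 1 control and 1 cKO cell of this class, and at least 2 stromal markers in 28 and 18.

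The lymphoid and dendritic gates held few cycling cells. In Cd3e cells the G2/M sum without Cenpa was 454 and 97.4 CPM, a ratio of 0.215 (0.179 to 0.256), and of 20 members with enough counts 7 were lower and 0 higher, against 2.67% and 8.52% of all genes. Mki67 there had 91.1 and 11 CPM, 8.28-fold lower (5.11 to 13.7), and Top2a 120.4 and 23.3 CPM, 5.17-fold lower (3.60 to 7.47). Depending on which cells counted as Cd3e cells, the log2 ratio of Mki67 (-3.05) ran from -6.59 with a single gate gene allowed to -1.98 with any Cd3e-positive cell, and that of Top2a (-2.37) from -3.72 to -1.04. Mki67 came from 4 cells in each library, and cycling cells held 82.8% of the control and 44.3% of the cKO sum. In Cd3e cells dendritic markers summed to 74.8 and 620 CPM, smooth-muscle markers to 56.9 and 177 CPM and mast cell markers to 13.0 and 73.2 CPM, while epithelial markers summed to 185 and 39.0 CPM, and their part was not tested. Stmn1, which destabilises microtubules, was 2.27-fold lower and Hmgb2, a chromatin protein, 1.50-fold lower, while Pcna was 1.28-fold higher (log2 ratio 0.35, but -0.029 after thinning to 5000 UMIs). The Stmn1 log2 ratio of -1.18 came to -0.39 after thinning to 1000 UMIs and to -0.55 with any Cd3e-positive cell, both short of 2-fold.

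In Ncr1 cells the G2/M sum without Cenpa was 1614 CPM in 20 control cells and 93.7 CPM in 36 cKO cells. Of 17 members with enough counts 9 were lower and 1 higher, against 7.86% and 11.5% of all genes. Mki67 had 43 UMIs in 3 control cells and 2 UMIs in 1 cKO cell, and Top2a had 64 and 7 UMIs. The 2 control cycling cells held 95% of the control sum. Stmn1 was 6.58-fold lower (3.81 to 12.0), Hmgb2 3.38-fold lower (2.75 to 4.18) and Cenpa 1.50-fold higher (1.05 to 2.18), although Cenpa turned to a log2 ratio of -0.070 after thinning to 1000 UMIs and of -0.0016 with any Ncr1-positive cell. After thinning to 1000 UMIs the log2 ratio of Stmn1 came from -2.72 to -0.36 and that of Hmgb2 from -1.76 to -0.63, both short of 2-fold. With a single gate gene allowed Top2a came from -3.98 to -1.94, and with any Ncr1-positive cell Mki67 came from -5.21 to -2.60.

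In Flt3 cells Mki67 had 80.2 CPM in control (58.7 to 107) and 69.7 in cKO (59.3 to 81.4), and Top2a had 61.0 and 60.5 CPM, so that neither differed beyond its interval. Of 19 members with enough counts 3 were higher and 2 lower, against 14.5% and 4.78% of all genes. The G2/M sum without Cenpa was 303 and 205 CPM, but 70.7% of the control sum came from 1 cell, and without the top cell of each library the log2 ratio turned from -0.56 to 0.69. Mcm6 had 1 UMI in control and 46 in cKO, a ratio of 11.6 (1.98 to 467). Pcna was 1.70-fold and Slbp 1.39-fold higher, while Stmn1, Hmgb2 and Nusap1 were 1.96-, 1.44- and 2.39-fold lower. Hmgb2 turned to a log2 ratio of 0.071 after thinning to 5000 UMIs. With any Flt3-positive cell the log2 ratio of Mcm6 came from 3.53 to 1.45 and that of Nusap1 from -1.25 to -0.63, short of 2-fold, and Slbp came from 0.47 to 1.40 after thinning to 1000 UMIs. Pcna had 95.9 and 163 CPM and Slbp 88.9 and 123 CPM in Flt3 cells, beside 131.5 and 236 CPM and 71.4 and 139 CPM in cell-free barcodes, and the part of free RNA was not tested here or in the Pdgfra, Cd3e and Actg2 classes. In Flt3 cells red cell markers summed to 3.49 and 413 CPM, stromal markers to 87.2 and 266 CPM and lymphatic markers to 0 and 225 CPM. Endothelial markers summed to 6.97 and 105 CPM and natural killer markers to 76.7 and 176 CPM. Epithelial markers summed to 105 and 42.5 CPM and macrophage markers to 40.1 and 25.4 CPM. At least 2 red cell markers were detected in 0 control and 2 cKO Flt3 cells, and at least 2 stromal markers in 2 and 15. The part of these markers was not tested.

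In Actg2 cells the G2/M sum without Cenpa was 42.9 CPM in control and 31.0 in cKO, a ratio whose interval included equality (0.472 to 1.13). Mki67 had 0 UMIs in both libraries and Top2a had 1 and 3. Of 15 members with enough counts 2 were higher and 1 lower, against 7.83% and 4.67% of all genes. Cenpa was 2.61-fold higher (1.28 to 6.01) and Pcna 1.2-fold higher (1.01 to 1.42), although Pcna was lower after thinning to 5000 UMIs (log2 ratio -0.16). The Cenpa log2 ratio of 1.38 came to 0.19 with any Actg2-positive cell, short of 2-fold, and to 2.88 with a single gate gene allowed. In Actg2 cells red cell markers summed to 46.5 CPM in control and 950.1 in cKO, stromal markers to 2021 and 3248 CPM, lymphatic markers to 13.1 and 192 CPM and epithelial markers to 438 and 42.2 CPM, and their part was not tested. At least 2 red cell markers were detected in 2 control and 2 cKO Actg2 cells, at least 2 lymphatic markers in 0 and 1. At least 2 stromal markers were detected in 152 and 250.

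In cells without a gate Mki67 had 32.9 CPM in control and 2.16 in cKO, 15.2-fold lower (9.80 to 24.7), and Top2a had 31.3 and 7.51 CPM, 4.16-fold lower (3.16 to 5.52). Cenpf, Ccna2 and Cenpe were 7.42-, 10.6- and 7.25-fold lower. These folds rest on few cells: 8 control cycling cells held 76.0% of the G2/M sum without Cenpa and 3 cKO cycling cells held 6.37%. In cells without a gate that were neither cycling nor replication-gene cells, that sum was 52.5 CPM in control and 55.7 CPM in cKO. Cenpa was 2.33-fold higher, as were Mcm6 (2.49-fold), Cdt1 (2.14-fold) and Mcm2 (1.97-fold).

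**Figure D5:**
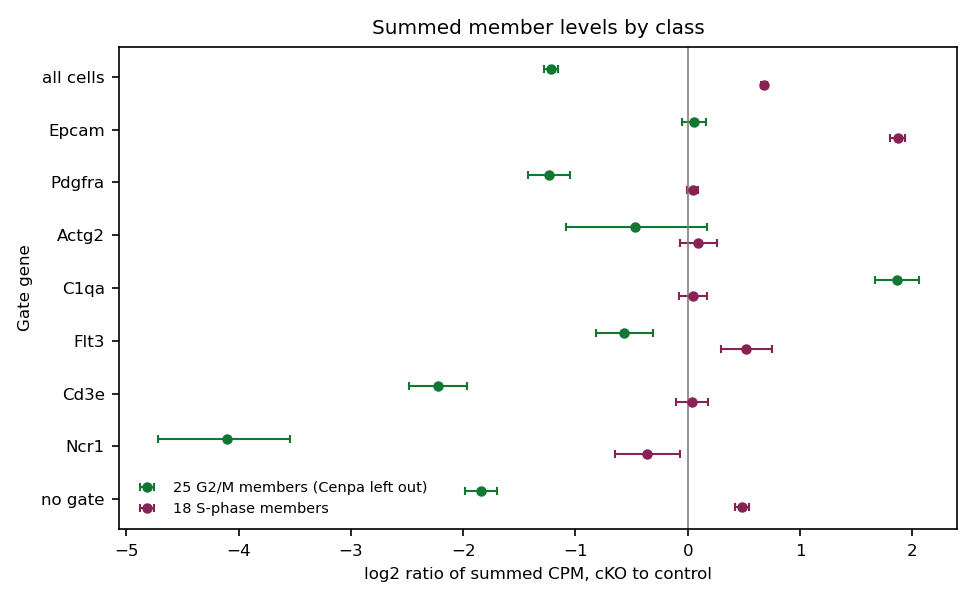
Log2 ratio of summed CPM, cKO to control (x axis), for the 25 G2/M members without Cenpa (green) and the 18 S-phase members (purple) in each class (y axis), with exact 95% intervals for counting error. The Epcam class shows the highest S-phase ratio (1.87) with a G2/M ratio of 0.05, and the C1qa class shows the highest G2/M ratio (1.86).

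The 2 members outside the phase lists were lower over all cells. Hmgb2 had 242 CPM in control and 189.9 in cKO, 1.27-fold lower (1.24 to 1.31), and Stmn1 had 41.8 and 34.2 CPM, 1.22-fold lower (1.14 to 1.31). In Epcam cells Stmn1 was instead 2.72-fold higher (2.41 to 3.06), and Hmgb2 had 254 and 269 CPM, a ratio whose interval included equality (0.996 to 1.13).

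A wider list of 64 cell-cycle genes that are not members, covering cyclin D and its inhibitors, the Rb and E2F families, origin and polymerase factors, kinetochore and cytokinesis genes, was read in the same way. Over all cells 1 of 64 was higher and 6 were lower, beside 13.4% and 13% of all genes, and in Epcam cells 30 of 63 were higher and 2 lower, beside the 29.3% and 9.35% of all genes in that class. Over all cells the genes furthest up were Rpa2, which coats single-stranded DNA (8.55 and 20.3 CPM, 2.38-fold, 2.10 to 2.70), Fen1, which trims replication fragments (1.93-fold, 1.67 to 2.23), and Rbl2, an Rb relative of resting cells (1.83-fold, 1.66 to 2.01). Those furthest down were Anln, a scaffold of the cleavage furrow (21.4 and 5.26 CPM, 4.07-fold lower, 3.55 to 4.69), Prc1, which bundles midzone microtubules (3.45-fold, 2.96 to 4.03), and Btg2, an antiproliferative gene (421 and 182 CPM, 2.32-fold, 2.26 to 2.38). Cell-free barcodes held Rpa2 at 8.15 and 24.9 CPM, Fen1 at 6.21 and 14.9 CPM and Rbl2 at 11.6 and 27.6 CPM. They held Anln at 10.9 and 2.63 CPM, Prc1 at 7.37 and 4.38 CPM and Btg2 at 319 and 153 CPM. The part of free RNA was not tested. In Epcam cells Rpa2 and Fen1 were 6.1- and 4.54-fold higher, and Anln and Prc1, over all cells 4.07- and 3.45-fold lower, had ratios of 1.21 and 0.794.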

How the data were processed

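Whole-uterus cells of 2 libraries, 1 control and 1 cKO, each a pool of 3 mice, were analysed. The deposited values are raw UMI counts per gene and barcode in unfiltered matrices, for which the authors used Cell Ranger 4 per the file headers, while the submitters' processing notes name Cell Ranger 6.1.1 and mm10. Further settings are not given in the sources used here. Groups were taken from the sample titles.

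Barcodes with at least 500 genes and at most 20% mitochondrial counts were kept, and no doublets were removed; a simulation-based doublet score (2 simulated doublets per cell) was used only as an alternative and as a value beside results. Cells were assigned to the gate gene with the most UMIs, and tied cells to no gate (20 control and 34 cKO). Counts were summed per class and library and scaled to the class total. Shares carry exact Clopper-Pearson intervals, their differences Newcombe intervals, CPM exact Poisson intervals and ratios exact conditional binomial intervals, all at 95% and for counting error only. A count of 0 was taken to allow 3 counts. Genes were counted as 2-fold apart among those expected to have at least 5 UMIs in each library at the pooled rate. With 1 library per group there was no test.

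Genes named with values are Mki67 and Top2a, and in each class up to 4 members furthest up and 4 furthest down by the interval limit nearer to equality, where the higher library held 20 or more UMIs; of the wider list, 3 each way over all cells. Others named were chosen after their values were seen. The members and lists were chosen with earlier results of these data known. Alternatives changed the gate, the gene and mitochondrial limits, doublets, the depth (thinning to 1000 or 5000 UMIs), the number of cycling genes needed, the count filter and the averaging. Leaving out Cenpa, the 5000-UMI thinning, the marker-supported gate and leaving out the top cell were added after the data were seen. Python 3.11.15, numpy 2.4.6, scipy 1.17.1, pandas 2.3.3 and scikit-learn 1.9.0 were used.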

Additional observations from a re-analysis of the deposited data

How the results depend on the processing

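No paired analysis was possible because each group is 1 library. Across alternatives the cycling share over all cells stayed lower in cKO, and the S-phase sum of Epcam cells stayed higher, with log2 ratios of 1.79 to 2.14; the G2/M sum over all cells kept its direction under every alternative only with Cenpa left out (-1.34 to -0.78). Thinning to 1000 UMIs leaves few UMIs per member, so its levels limit what can be read. Causes of the other changes were not tested. Counts of members under an alternative are given without the number that had enough counts there or the share of all genes. Counts after thinning cannot be set beside those at own depth, as fewer members can then have enough counts. All ratios in this paragraph are log2 ratios of cKO to control. Leaving out Cenpa changed the G2/M ratio from -0.53 to -1.22 over all cells, from 0.18 to 0.055 in Epcam, from 0.14 to -0.47 in Actg2, from 1.57 to 1.86 in C1qa and from -1.19 to -2.22 in Cd3e cells. With any cell holding the gate gene, the G2/M ratio was -1.63 in Actg2, 1.33 in C1qa, -0.79 in Cd3e and -0.62 in Pdgfra cells, where it was -1.10, 2 Pdgfra members were higher in place of 0, and Cenpa in Ncr1 cells turned from 0.59 to -0.0016. With a single gate gene allowed, the G2/M ratio was 0.29 in C1qa and -1.38 in Cd3e cells, the S-phase ratio in Ncr1 cells turned from -0.36 to 0.019, 8 C1qa members were higher (25 otherwise) and 3 lower (0 otherwise), and 2 Pdgfra members were higher. The cycling difference was 3.76 points in Flt3 cells with 2 of the 8 genes needed (-1.65 with 3) and 1.86 points in Epcam cells with 4 needed (6.63 with 3). A mitochondrial limit of 10% gave an S-phase ratio of 0.64 over all cells (0.68 at 20%), removing doublet scores over 0.25 a G2/M ratio of -1.33 in Pdgfra cells, requiring further markers 1 lower Epcam member in place of 3, and no count filter 2 lower C1qa and 16 lower Pdgfra members (8 otherwise).

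With the mean over cells of each cell's own level, the G2/M log2 ratio was 0.24 over all cells (reversed), 1.33 in Epcam, -0.46 in Pdgfra, -0.49 in Actg2, 0.56 in C1qa and -0.69 in Cd3e cells, and the S-phase ratio was 0.63 over all cells, 2.10 in Epcam, 0.33 in Actg2 (0.09 otherwise), 0.20 in Cd3e (0.04 otherwise) and 0.15 in Ncr1 cells (reversed). Without the top cell of each library the G2/M ratio was -0.44 over all cells, 0.029 in Epcam, -0.69 in Pdgfra, 1.89 in C1qa, -0.89 in Cd3e and 0.26 in Flt3 cells (-0.44 with it; without Cenpa 0.69 against -0.56), and the S-phase ratio 1.79 in Epcam and 0.24 in Ncr1 cells (reversed).

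Thinning to 5000 UMIs gave a cycling difference of -0.0849 points in Epcam cells (reversed). The G2/M log2 ratio was -0.33 over all cells, 0.59 in Epcam and -1.54 in Cd3e cells, and the S-phase ratio 0.53 over all cells, 2.03 in Epcam and 0.15 in Ncr1 cells (reversed). Single members that turned were Hmgb2 in Flt3 (0.071, otherwise -0.52), Pcna in Actg2 (-0.16, otherwise 0.26) and Pcna in Cd3e cells (-0.029, otherwise 0.35). In C1qa 6 members were higher, in Pdgfra 3 higher and 2 lower, and in Epcam 0 lower. Thinning to 1000 UMIs gave cycling differences of 0.370 points in Epcam cells and -0.179 over all cells, and a replication-gene difference of 0.0431 points over all cells (reversed from -0.613). The G2/M log2 ratio was 0.39 over all cells (reversed), 1.69 in Epcam, 1.02 in C1qa and -0.54 in Cd3e cells, and the S-phase ratio 0.60 over all cells, 2.14 in Epcam, 0.21 in C1qa (0.05 otherwise), 0.29 in Cd3e, -0.069 in Pdgfra (0.04 otherwise) and 0.32 in Ncr1 cells (reversed). Cenpa turned to -0.070 in Ncr1, Pcna to -0.0071 in Pdgfra (0.13 otherwise), Slbp to 0.47 in C1qa (-0.37 otherwise) and Ube2c to 1.57 in Epcam cells (-0.80 otherwise). Members higher were 1 in C1qa and 2 in Epcam (20 otherwise), and members lower were 1 in C1qa, 0 in Epcam, 1 in Pdgfra and 8 over all cells (19 otherwise).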
